A study of Canis lupus familiaris with 31 samples.

Results

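Severe excess of triglycerides in blood (HTG) was studied in 7 Miniature Schnauzers, Case_01 to Case_07, whose fasting serum triglycerides were at least 500 mg/dl in the clinical table of the study. They were compared with the 18 Miniature Schnauzers with normal triglycerides, Control_01 to Control_18. The 7 dogs were chosen from the 13 cases by their triglycerides and not by any measured RNA, and they are 7 of 31 dogs in the series. The 6 remaining cases, Case_08 to Case_13, had HTG below that limit and are called moderate HTG. RNA of whole blood was sequenced in 1 library per dog after removal of ribosomal RNA, and each dog was a separate animal. The severe group had 2 females and 5 males, and the control group had 8 females and 10 males. All were older purebred dogs, nearly all neutered, bled after a fast, and no dog was given an agent by the study. Dogs were not enrolled when an endocrine disease was suspected or a drug that alters lipids was given.

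Triglycerides travel in blood inside chylomicrons, made by the intestine, and very low density lipoproteins, made by the liver. Lipoprotein lipase on the vessel wall splits them, with apolipoproteins as its activators and inhibitors, and remnants are taken up by the liver. Whole blood holds few of the cells that run this system. Its RNA comes from neutrophils, monocytes and lymphocytes, from platelets, which have no nucleus and carry RNA left by megakaryocytes, and from young red cells, which still carry the transcripts of hemoglobin and heme synthesis. In such a sample, more cells of a type and more RNA per cell cannot be told apart.

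Between 17016045 and 24269376 counts per dog fell on genes in the severe group and between 14524659 and 41533599 in the controls (log10 of the totals, exact permutation test, two-sided, p = 0.74). The markers of neutrophils, the most numerous white cells, summed to 6045 to 10630 counts in each 1000000 (CPM) in the severe group and 4142 to 17531 CPM in the controls. The summed level of 11 platelet markers was 2267 to 4401 CPM in the severe group and 660 to 4571 CPM in the controls. Endothelial markers were near the floor, with sums of 10.3 to 23.5 CPM and 9.53 to 22.0 CPM. A marker score was the mean over the markers of a cell type of log2 CPM, each centred on its mean over all dogs. The platelet score ran from 0.02 in Case_03 to 0.92 in Case_06, with a median of 0.54, and in the controls it ran from -1.30 to 0.81, with a median of -0.15. All 7 severe dogs lay above the control median, and 5 of 18 controls lay above the lowest severe dog. The red cell precursor score spread far more, from -1.38 in Case_04 to 2.48 in Case_01 and from -1.81 to 2.80 in the controls. Control_03 held the highest red cell precursor score of all dogs and the highest platelet score of the controls. The dogs also fell into a low and a high side by 392 rows of small noncoding RNA, with a mean of 0.31 to 1.05 log2 CPM in 21 dogs and 1.33 to 2.08 in 10 dogs. Case_05, Case_06, Case_07 and 5 controls were on the high side, and Case_01 to Case_04 and 13 controls were on the low side. The study made part of its libraries earlier in a pilot, and the sources used here do not name the dogs of that pilot. The high side of the split holds as many cases as controls, as the pilot did by the study's methods, and whether its dogs are those of the pilot cannot be told from the sources used here.

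**Figure D1:**
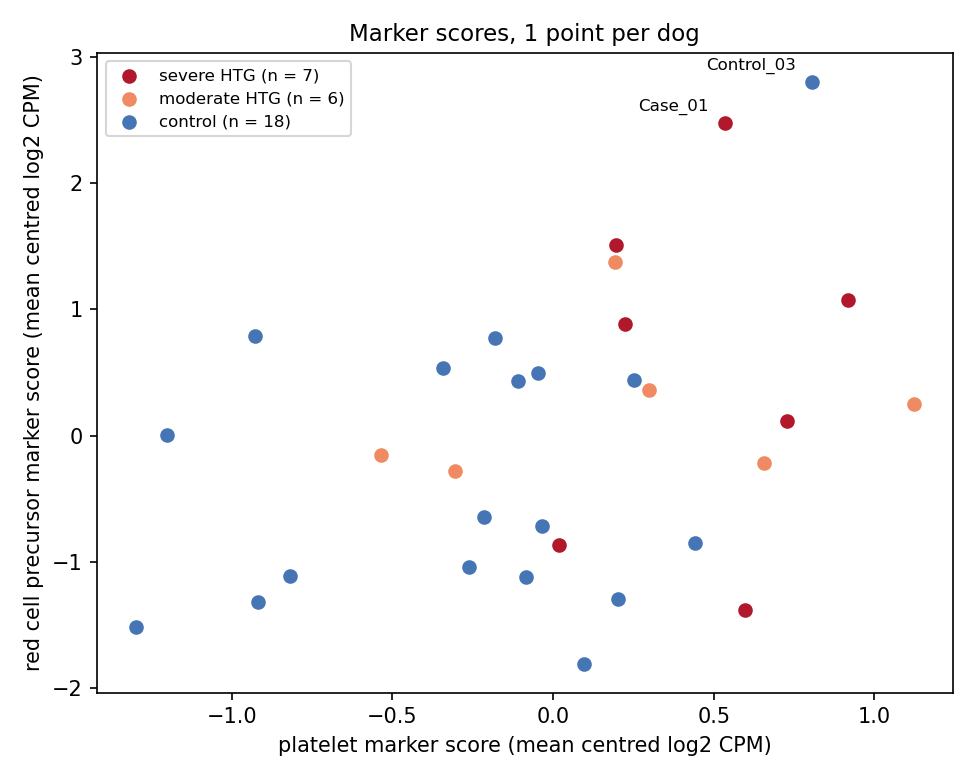
Platelet marker score (x axis) against red cell precursor marker score (y axis), both as mean centred log2 CPM, with 1 point per dog. The 7 severe dogs sit between 0.02 and 0.92 on the platelet axis but between -1.38 and 2.48 on the red cell axis, where Control_03 and Case_01 are the highest dogs.

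Of 14427 genes tested, 10 passed the threshold of an adjusted p of 0.05, which is 0.0693% of them, and all 10 were higher in severe HTG. Of the 10, 6 carried a gene symbol and 4 did not. In no gene did all 7 severe dogs lie above all 18 controls (0% of genes tested). At an unadjusted p under 0.05, 690 genes were higher (4.78%) and 535 were lower (3.71%).

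ARHGAP29 and ARHGAP21 encode GTPase activating proteins, which switch off small signalling proteins that shape the actin cytoskeleton. ARHGAP29 was measured at 6.92, 8.15, 1.71, 3.64, 14.2, 4.75 and 3.68 CPM in Case_01 to Case_07. The controls had a lowest value of 0.22, a median of 1.15 and a highest of 3.58 CPM. Thus 6 of 7 severe dogs were above every control, and Case_03 was above the control median only. The log2 fold change of severe HTG over controls was 2.21 ± 0.34 (SE, adjusted p = 0.00687). ARHGAP21 stood at 43.1, 32.4, 34.4, 43.6, 38.9, 45.8 and 24.2 CPM in the same order of dogs, and the controls ran from 19.1 over a median of 24.4 to 32.7 CPM. Case_07 was just below the control median, Case_02 was within the range of the controls, and the other 5 severe dogs were above all controls. Its log2 fold change was 0.63 ± 0.10 (SE, adjusted p = 0.00791).

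MAPK6, an atypical MAP kinase also known as ERK3, was at 75.5, 44.3, 47.2, 55.3, 90.5, 47.6 and 45.4 CPM in Case_01 to Case_07. The controls ran from 25.7 over a median of 35.7 to 47.5 CPM. All 7 severe dogs were above the control median and 4 were above all controls, with Case_01 and Case_05 apart from the rest (log2 fold change 0.67 ± 0.12, SE, adjusted p = 0.0298). CISH encodes a suppressor of cytokine signalling that is induced through STAT5 and damps the same pathway. It was at 130, 66.7, 75.1, 81.4, 62.5, 47.9 and 52.2 CPM in Case_01 to Case_07, against 22.0 to 78.8 CPM in the controls with a median of 38.1. Case_01 was far above all other dogs and only Case_04 joined it above the highest control (log2 fold change 0.86 ± 0.17, SE, adjusted p = 0.0495). BANF1, a small protein that binds DNA and helps to rebuild the nuclear envelope, was at 27.0, 23.4, 26.1, 22.1, 27.8, 27.3 and 15.9 CPM, against 14.2 to 24.1 CPM in the controls with a median of 17.2. Case_07 was below the control median, and the other 6 severe dogs were above it (log2 fold change 0.47 ± 0.09, SE, adjusted p = 0.0495).

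The 4 called genes without a symbol were known by an Ensembl identifier alone, and nothing is said here of their function. Of these, ENSCAFG00000032311 was at 1.55, 2.31, 0.90, 5.94, 2.35, 1.67 and 0.14 CPM in Case_01 to Case_07 and at most at 1.00 CPM in the controls, and ENSCAFG00000023004 was at 2.77 to 21.8 CPM in the severe dogs and at 0.332 to 5.16 CPM in the controls. Case_04 held the highest value of both rows by far, with 5.94 and 21.8 CPM. Their log2 fold changes were 2.51 ± 0.44 (SE, adjusted p = 0.021) and 1.92 ± 0.35 (SE, adjusted p = 0.0298).

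**Figure D2:**
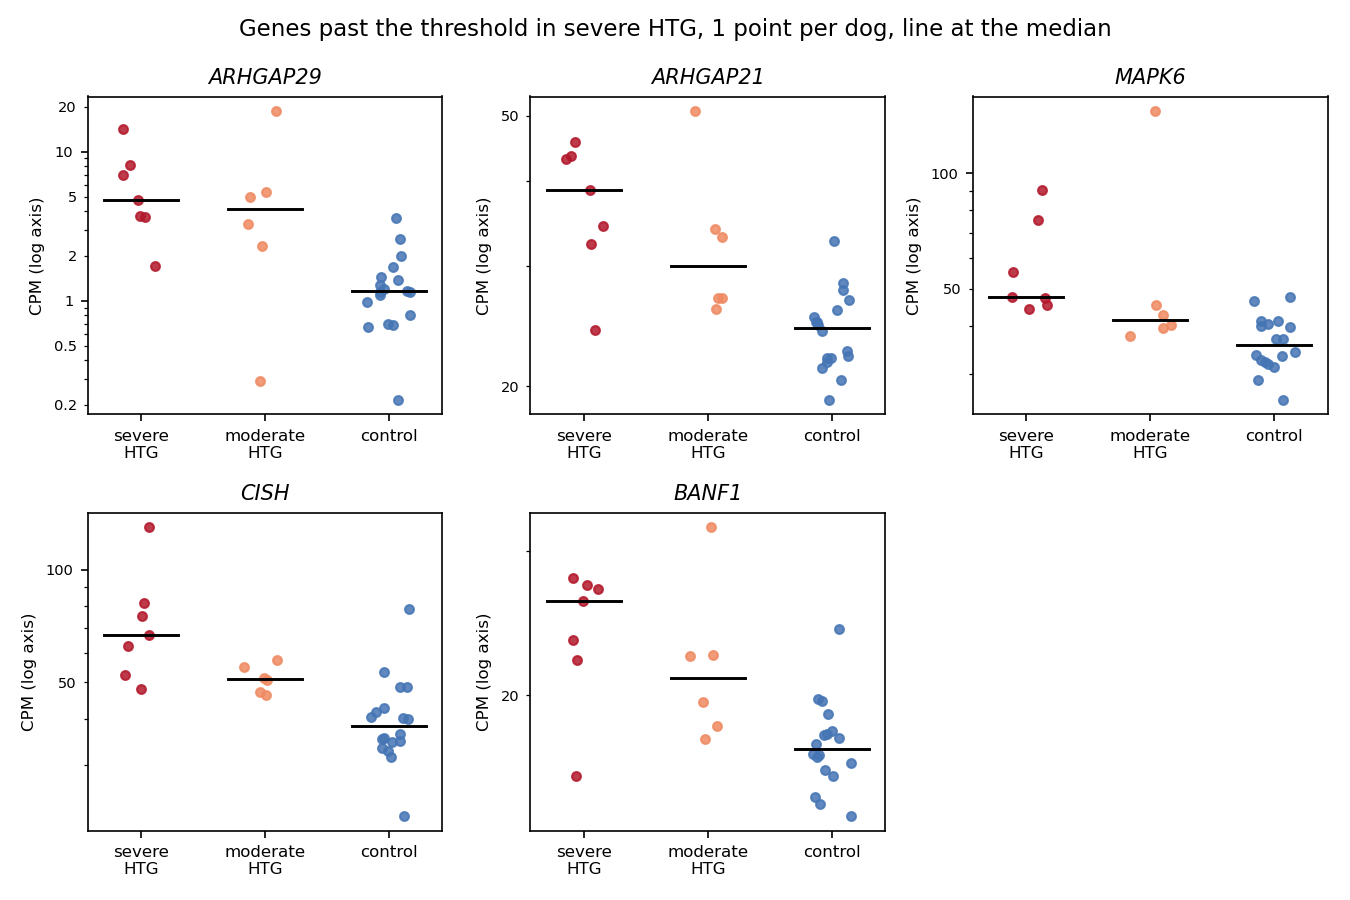
CPM on a log axis of 5 genes past the threshold (panels), with 1 point per dog for the 7 severe, 6 moderate and 18 control dogs and a line at the group median. Most severe dogs lie above the control median of 1.15 CPM for ARHGAP29, 24.4 for ARHGAP21, 35.7 for MAPK6, 38.1 for CISH and 17.2 for BANF1, and in every panel some dogs overlap.

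The number of calls depended on which dogs were in the comparison. Left out in turn, Control_03 gave 63 calls, 60 of them higher and all 10 genes among them, Case_07 gave 16, Case_03 gave 15 and Case_02 gave 13. The count was 10 without Control_02 or Control_18 and 7 without Control_04. It fell to 6 without Control_09, Control_13 or Control_15, to 5 without Case_06, Control_11 or Control_14, and to 4 without Case_01, Case_05, Control_01, Control_05 or Control_12. Without Control_06, Control_07, Control_08, Control_10, Control_16 or Control_17 it was 3, and without Case_04 it was 1. ARHGAP29 was called in all 25 of these comparisons, ARHGAP21 and ENSCAFG00000032311 in 24, MAPK6 in 16, ENSCAFG00000023004 in 13, CISH in 5 and BANF1 in 3. Without Case_01 and Control_03 together, 5 genes were called, of which 4 were among the 10. With DESeq2 43 genes passed, 37 higher and 6 lower, and they held all 10. MMRN1, THBS1, EGF, ZFPM1, SLPI, ALAD, EPOR, LSS, CHST9, ST6GALNAC4 and SIAE passed with DESeq2 as higher, and XKRX, PHF14, BTAF1, MRPL35 and FKBP5 as lower, at adjusted p values from 0.00435 for XKRX to 0.0474 for FKBP5. With edgeR on all dogs none of these 16 genes passed. With sex or with age as a covariate edgeR called 2 genes, each time among the 10. With body condition score it called 6, of which 3 were among the 10. With at least 10 counts in every dog it called 1, which was among the 10.

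**Figure D3:**
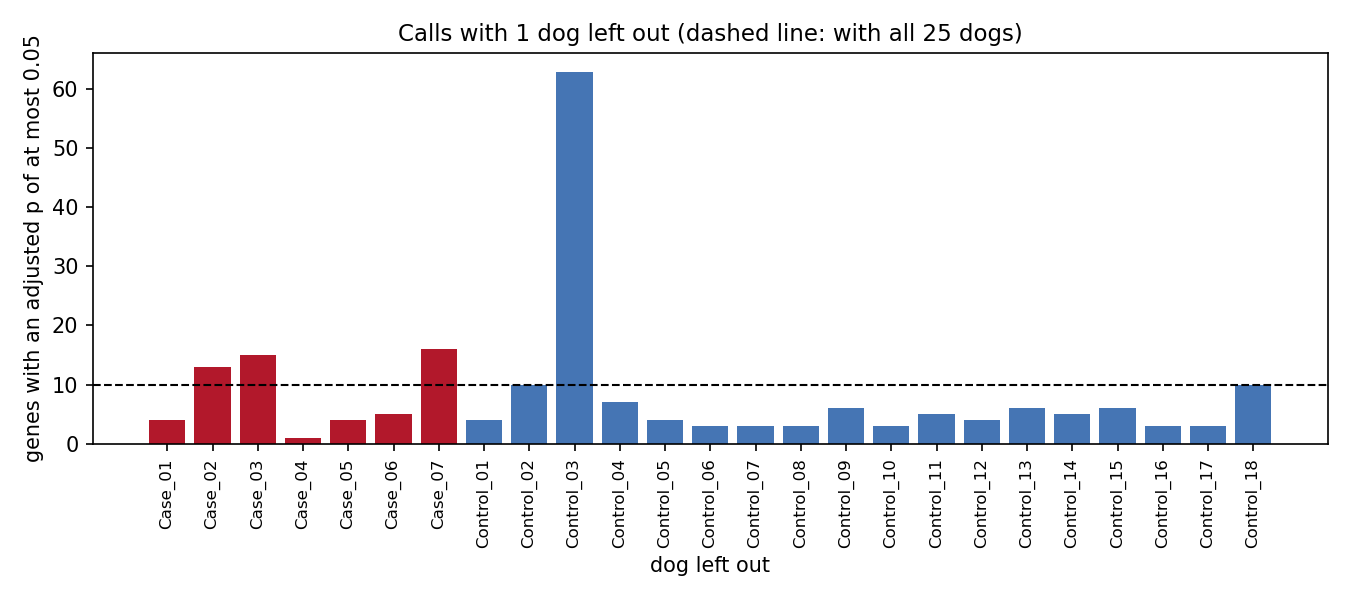
Number of genes with an adjusted p of at most 0.05 (y axis) when the dog on the x axis was left out, in red for severe and blue for control dogs, with a dashed line at the 10 calls of all 25 dogs. The bar of Control_03 reaches 63, and the others lie between 1 and 16.

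The called genes were also compared within each side of the small RNA split. ARHGAP29 had a log2 fold change of 2.39 ± 0.57 (SE) among the 3 severe dogs and 5 controls of the high side and 1.99 ± 0.41 among the 4 severe dogs and 13 controls of the low side. ARHGAP21 had 0.42 ± 0.21 and 0.73 ± 0.10, MAPK6 had 0.65 ± 0.23 and 0.65 ± 0.14, and BANF1 had 0.49 ± 0.19 and 0.47 ± 0.11. CISH had 0.11 ± 0.26 in the former and 1.26 ± 0.16 in the latter, and this difference was not tested. With the split as a covariate 11 genes were called, 9 of them among the 10. With the dogs of the high side alone edgeR called 0 genes (781 at an unadjusted p under 0.05), and with those of the low side alone it called 3.

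Platelet genes had positive fold changes in nearly every member tested. With edgeR on all dogs none of them passed the threshold over all genes, while DESeq2 called 3 of the alpha granule, 0 of the receptor and 0 of the signalling genes. The platelet lists hold genes that the study singled out in these dogs, so their counts are not independent evidence. Platelet receptors bind collagen, fibrinogen, von Willebrand factor and the activating ligands of the vessel wall. Of 22 receptors tested, 14 had an unadjusted p under 0.05 and were higher, against 4.78% of all genes, and 21 of 22 had a positive log2 fold change. Their median log2 fold change was 0.59, against -0.02 over all genes tested. ITGB3 and ITGA2B encode the subunits of the fibrinogen receptor. ITGB3 was at 1235, 666, 907, 1258, 1185, 1473 and 805 CPM in Case_01 to Case_07, against 285 to 971 CPM in the controls with a median of 605 (log2 fold change 0.79 ± 0.21, SE, adjusted p = 0.191). Each of the 7 severe dogs was above the control median, and 4 were above all controls. ITGA2B had a log2 fold change of 0.83 ± 0.25, and GP1BB and GP1BA, chains of the receptor for von Willebrand factor, had 1.05 ± 0.29 and 0.86 ± 0.30 (SE). SELP, the adhesion molecule P-selectin, had 0.59 ± 0.20. In 13 of the 22 receptors all 7 severe dogs were above the control median, as they were in 3.54% of all genes. The platelet score moved with these values, and with it as a covariate the median of the receptors was 0.04 and edgeR called 0 genes anywhere (741 at an unadjusted p under 0.05). The score and the receptors share genes, and more platelets and more RNA per platelet cannot be told apart.

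**Figure D4:**
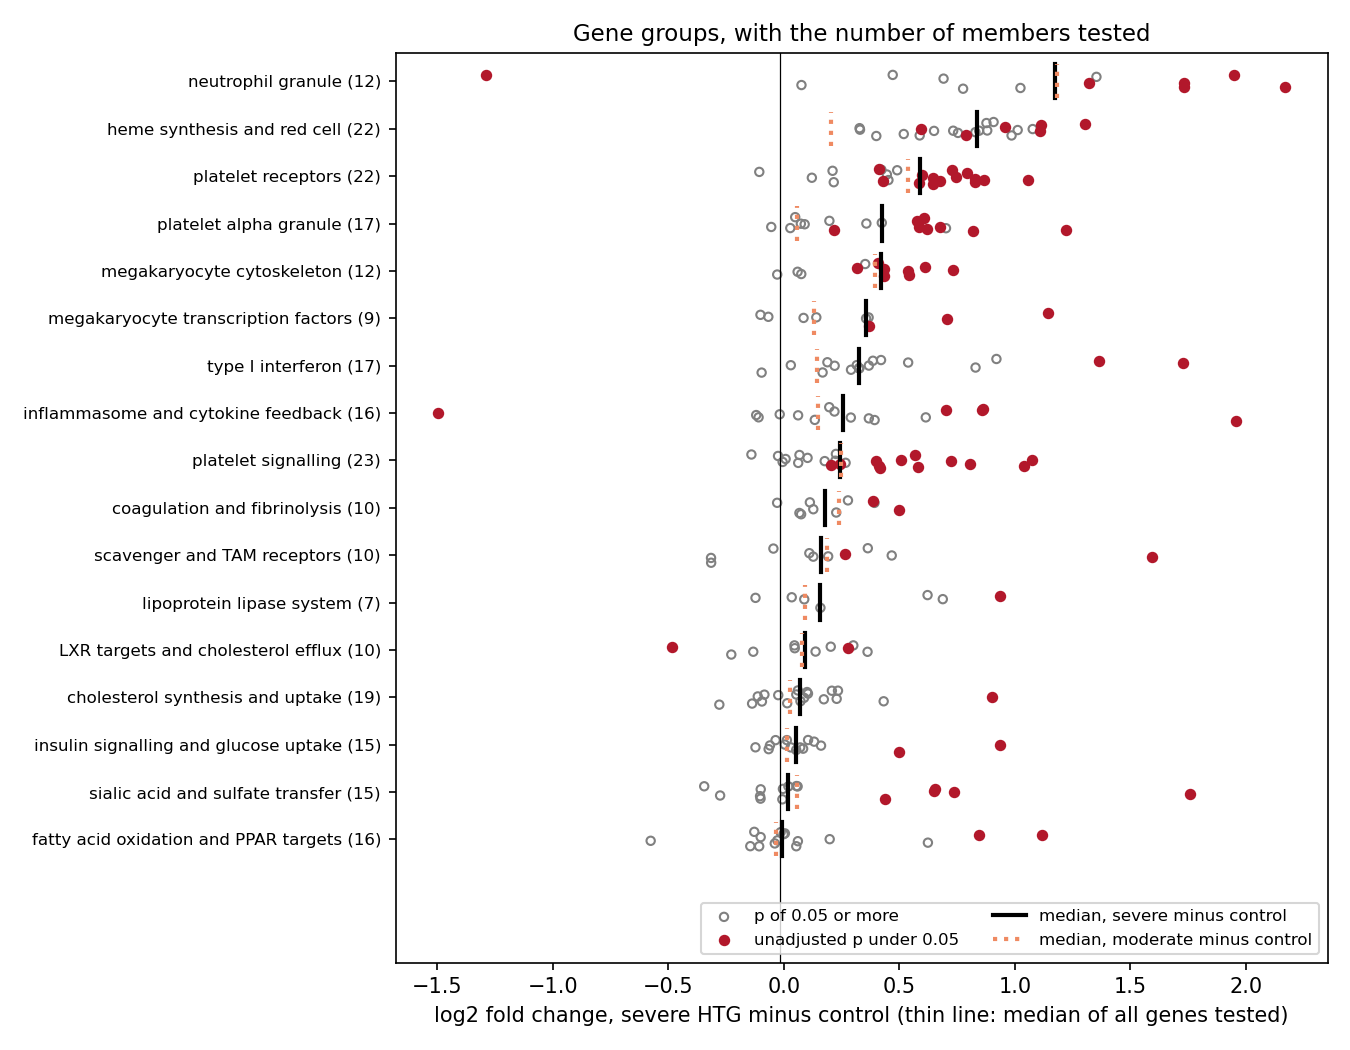
Log2 fold change of severe HTG minus control (x axis) for every tested member of the gene groups described (y axis, with the number tested). Filled points have an unadjusted p under 0.05, black bars mark the group median and dotted orange bars the median of moderate HTG minus control. The medians run from -0.01 for fatty acid oxidation to 1.17 for neutrophil granule genes, and for heme synthesis and red cell genes they were 0.84 in severe and 0.21 in moderate HTG.

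Alpha granules are the stores from which platelets release adhesive proteins and growth factors. Of 17 genes of alpha granule cargo and granule formation tested, 8 had an unadjusted p under 0.05, all higher, against 4.78% of all genes. The median log2 fold change was 0.42. MMRN1, multimerin, which binds factor V in the granule, lay just outside the threshold with a log2 fold change of 1.22 ± 0.25 (SE, adjusted p = 0.0579). It was at 61.05, 25.7, 37.5, 46.2, 57.5, 48.3 and 27.1 CPM in Case_01 to Case_07, against 7.74 to 39.4 CPM in the controls with a median of 17.2. THBS1, thrombospondin, was at 634 CPM in Case_02, below the control median of 806, and at 1055 to 1855 CPM in the other 6 severe dogs, of which 5 exceeded the highest control of 1200 CPM. Its log2 fold change was 0.82 ± 0.20 (SE, adjusted p = 0.133), and that of EGF was 0.67 ± 0.16 (SE). The chemokine PPBP was at 1536 to 3100 CPM in the severe group and 386 to 3430 CPM in the controls, with 6 of 7 severe dogs above the control median (log2 fold change 0.36 ± 0.26, SE).

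Of 23 genes of platelet signalling, 12 were higher at an unadjusted p under 0.05, none was lower, and the median log2 fold change was 0.24. PRKG1, the kinase that answers to cyclic GMP, had 1.04 ± 0.28, ALOX12, platelet lipoxygenase, 1.07 ± 0.32, GNAZ, a G protein subunit, 0.81 ± 0.22 and PTGS1, the cyclooxygenase that aspirin blocks in platelets, 0.72 ± 0.21 (SE). In these 4 genes the 7 severe dogs were all above the control median. Of 12 cytoskeleton genes of megakaryocytes, 8 were higher at that level, with a median of 0.42. TUBB1, the tubulin of the platelet's marginal band, had 0.73 ± 0.22, VCL, vinculin, 0.54 ± 0.15 and GSN, gelsolin, 0.54 ± 0.15 (SE). Of 9 transcription factors of megakaryocytes, 3 were higher at that level, GATA2, ZFPM1 and TAL1, and the median was 0.36. GATA2, also used by progenitors, basophils and mast cells, was at 2.14 to 9.43 CPM in the severe group and at 0.81 to 5.52 CPM in the controls (log2 fold change 1.14 ± 0.32, SE). ZFPM1, the partner of GATA factors, had 0.71 ± 0.17 and TAL1 0.37 ± 0.16 (SE). For ZFPM1, Case_03 at 2.73 CPM was below the lowest control at 3.11 CPM, while 4 severe dogs were above all controls. NFE2, which drives late maturation, had 0.37 ± 0.19 (SE) and did not reach an unadjusted p under 0.05. Without Case_01, NFE2 and the median of the list were both at 0.23. The score of basophil and eosinophil markers ran from -0.61 to 0.70 in the severe dogs and from -0.68 to 0.73 in the controls. The severe dog with the most GATA2, Case_02, had a score of -0.19, Case_04, Case_05 and Case_06, next in GATA2, had 0.11, 0.43 and 0.70, and the 3 dogs with the least had -0.61 to -0.28. The part of these cells in GATA2 was not tested.

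Of 10 genes of coagulation and fibrinolysis tested, 2 were higher at an unadjusted p under 0.05, against 4.78% of all genes. The median was 0.18, and with 1 dog left out it ran from 0.12 to 0.29, the latter without Case_03. With the platelet score as a covariate the median was 0.09. TFPI, the inhibitor of the tissue factor pathway, was among the 2 higher genes with 0.50 ± 0.23 (SE). It had 0.33 without Case_06 and -0.15 with the platelet score as a covariate.

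Genes of neutrophil granules had a median log2 fold change of 1.17 over 12 genes tested, with 5 higher and 1 lower at an unadjusted p under 0.05. Granule genes are transcribed while neutrophils mature in the marrow, and mature blood neutrophils hold little of the early ones. MPO, myeloperoxidase, was at 8.65, 3.06, 2.38, 5.15, 8.92, 1.88 and 1.18 CPM in Case_01 to Case_07, against 0 to 3.79 CPM in the controls with a median of 0.40. Each severe dog was above the control median, and 3 exceeded the highest control (log2 fold change 2.17 ± 0.60, SE, adjusted p = 0.228). SLPI, an inhibitor of neutrophil elastase and cathepsin G, was at 0.322 to 3.88 CPM against 0 to 1.52 CPM (log2 fold change 1.95 ± 0.43, SE, adjusted p = 0.081). CTSG, cathepsin G, had 1.32 ± 0.41, CD177, a surface protein that joins neutrophils to endothelium, 1.73 ± 0.70 and CAMP, cathelicidin, 1.73 ± 0.81 (SE). The levels of CD177 spread over a wide range within the severe group, at 151 CPM in Case_01 and 13.45 CPM in Case_02. LCN2, lipocalin, which withholds iron from bacteria, went the other way, at no more than 2.52 CPM in 6 severe dogs and 10.1 CPM in Case_03, against a control median of 7.84 CPM (log2 fold change -1.29 ± 0.51, SE, and -1.97 without Case_03). The 7 markers of mature neutrophils had a median of 0.13, and none of them had an unadjusted p under 0.05. That median ran from 0.02 to 0.20 with 1 dog left out, and it was 0.47 on the high side of the small RNA split and -0.11 on the low side. MMP9 was on both lists.

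All 22 genes of heme synthesis and red cells had a positive log2 fold change, with a median of 0.84, and 6 had an unadjusted p under 0.05. The spread between dogs was as large as the difference. ALAS2, the enzyme that starts heme synthesis in red cells, was at 14190, 5632, 541, 890, 2913, 7743 and 7375 CPM in Case_01 to Case_07. The controls ran from 475 over a median of 1254 to 23707 CPM (log2 fold change 0.99 ± 0.65, SE, adjusted p = 0.684). Case_03 and Case_04 were below the control median, and the other 5 were above it. Control_03 was the highest control in all 22 genes, and Case_01 was the highest severe dog in 20 of 22. The median was 1.17 without Control_03, 0.41 without Case_01 and 0.77 without both dogs. The high side of the small RNA split gave 0.17, and the low side gave 1.03. ALAD, the second enzyme of heme synthesis, had the smallest p, at 20.9, 18.8, 8.22, 6.89, 9.82, 18.5 and 28.1 CPM in Case_01 to Case_07 against 4.51 to 15.1 CPM, with a control median of 5.98 (log2 fold change 1.11 ± 0.24, SE, adjusted p = 0.0771). No severe dog was below the control median. EPOR, the erythropoietin receptor, had 0.96 ± 0.22, TFRC, the transferrin receptor, 0.79 ± 0.31, ANK1, ankyrin of the red cell skeleton, 1.11 ± 0.51 and CPOX 0.59 ± 0.23 (SE). Without Case_01, TFRC had 0.50, ANK1 0.27 and ALAS2 0.56, and without Control_03 ALAS2 had 1.81. With the red cell precursor score as a covariate, ALAD kept 0.69 and EPOR 0.71, while ANK1 had 0.20. Without Control_03, ALAD (adjusted p = 0.0199) and EPOR (adjusted p = 0.0199) passed the threshold, and so did the red cell surface gene GYPC, with 1.16 ± 0.23 (SE, adjusted p = 0.0324), against 0.74 with all dogs (adjusted p = 0.615). GYPC was chosen after its values were seen.

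Other genes that passed without Control_03 and belong to the groups described were SLPI, MMRN1, THBS1, GSN, CAPNS1, ITGB1, CHST9 and ST6GALNAC4. Their log2 fold changes without that dog were 2.13 for SLPI, 1.22 for MMRN1, 0.86 for THBS1, 0.60 for GSN, 0.49 for the calpain subunit CAPNS1, 0.47 for the integrin ITGB1, 1.77 for CHST9 and 0.79 for ST6GALNAC4. Of these 8 genes, none moved by more than 0.2 from its value with all dogs.

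The genes that handle triglycerides were mostly too low in blood to be tested. Of 17 genes of the lipoprotein lipase system, 7 were tested. LPL had at most 25 counts in any severe or control dog, its anchor GPIHBP1 at most 3, and APOC2, APOC3 and APOA5, the apolipoproteins that turn the enzyme on or off, at most 3, 1 and 0. The median log2 fold change of the 7 was 0.16. The other genes of lipid metabolism centred near 0. The median log2 fold change was 0.09 over 10 genes of the liver X receptors, of their targets and of cholesterol efflux. It was 0.07 over 19 genes of cholesterol synthesis and uptake and -0.01 over 16 genes of fatty acid oxidation. In the same order, 2, 1 and 2 genes had an unadjusted p under 0.05. ABCG1, which moves cholesterol out of cells, was at 4.62 to 10.9 CPM against 4.27 to 13.1 CPM (log2 fold change -0.49 ± 0.21, SE). SREBF1, the factor that drives fatty acid synthesis, had 0.28 ± 0.13, with -0.05 on the high side of the split and 0.18 without Case_01.

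LSS stood apart in the cholesterol pathway. It encodes lanosterol synthase, which closes the ring system of sterols. Its levels were 9.19, 5.15, 3.39, 5.98, 2.99, 4.75 and 3.47 CPM in Case_01 to Case_07, against 0.75 to 3.78 CPM in the controls with a median of 2.78. All 7 severe dogs were above the control median and 4 were above all controls (log2 fold change 0.90 ± 0.22, SE, adjusted p = 0.133). The moderate dogs were at 1.87 to 3.68 CPM, near the controls. FDFT1, squalene synthase, which acts earlier in the pathway, had 0.43 ± 0.24 (SE), and 0.16 without Case_01. UCP2, a carrier of the inner mitochondrial membrane, was at 6059 CPM in Case_01 and 299 to 1398 CPM in the other severe dogs, and its highest control was again Control_03, at 3759 CPM (log2 fold change 1.12 ± 0.50, SE, and 0.075 without Case_01). On the high side of the small RNA split UCP2 was at -0.32, and with the red cell precursor score as a covariate it was at 0.06. PPARGC1A, the coactivator of mitochondrial genes, had 0.85 ± 0.31 (SE) at 0.82 to 4.22 CPM, and 0.56 without Case_06, the highest dog.

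**Figure D5:**
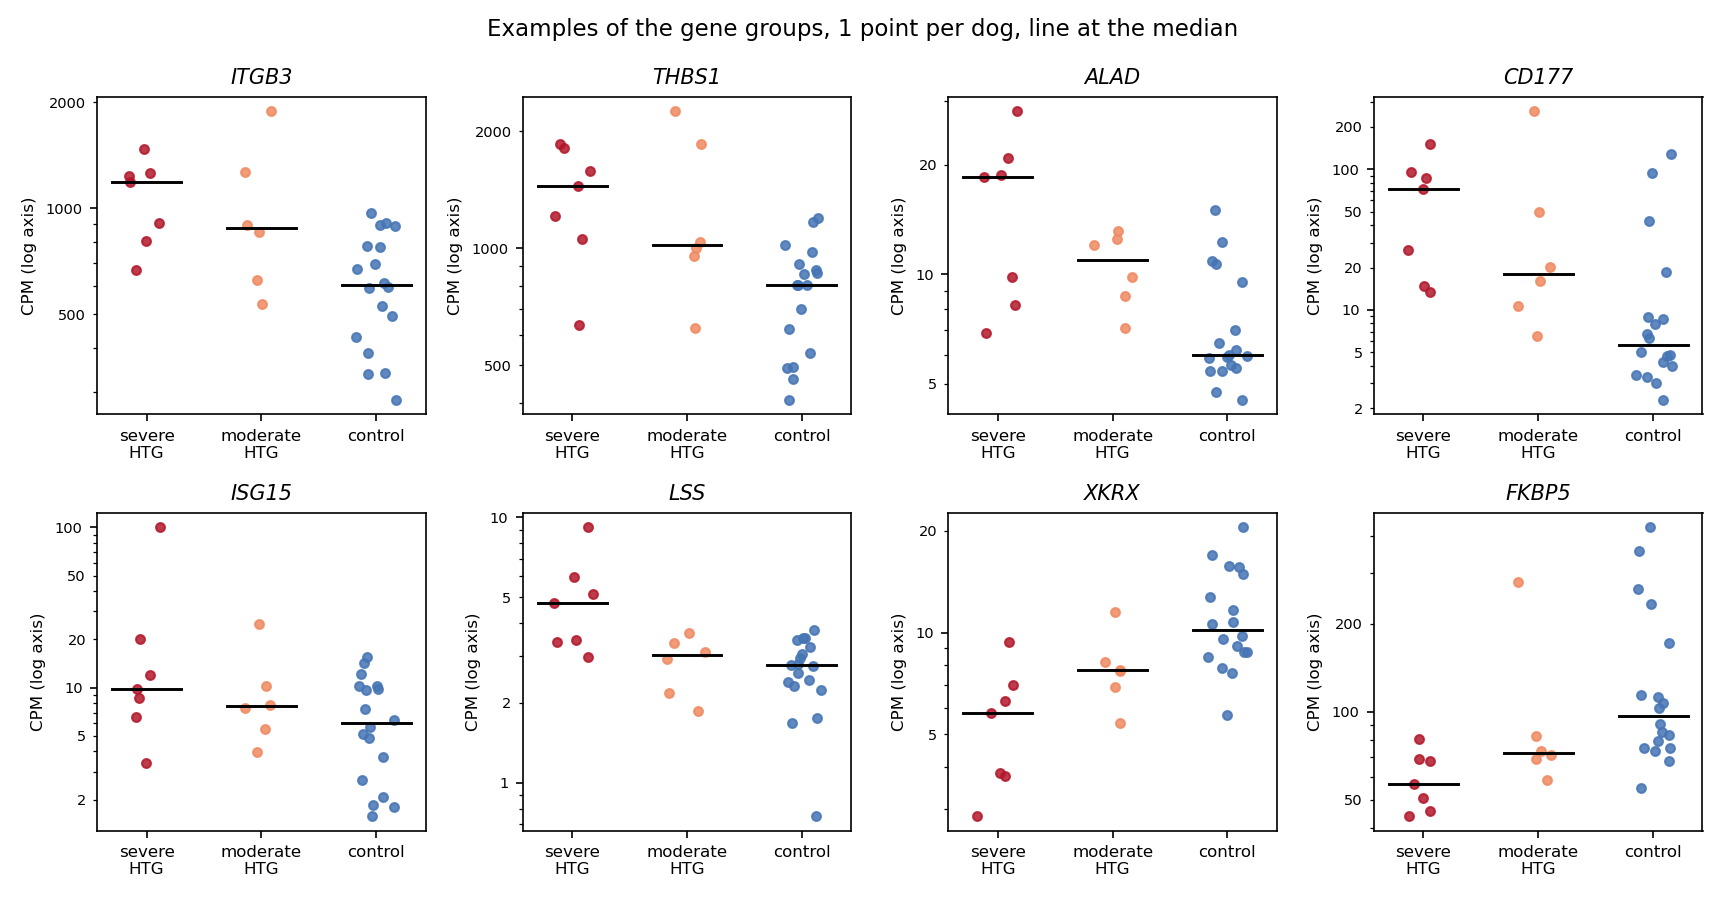
CPM on a log axis of 8 genes described here (panels), with 1 point per dog for the 7 severe, 6 moderate and 18 control dogs and a line at the group median. For ITGB3, THBS1, ALAD, CD177 and LSS most severe dogs lie above the control median, 1 severe dog at 100.3 CPM stands apart for ISG15, and for XKRX and FKBP5 all 7 lie below the control median.

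CISH was the only called gene among 16 genes of the inflammasome and of cytokine feedback, of which 4 were higher and 1 was lower at an unadjusted p under 0.05 (median 0.25). SOCS2, of the same family as CISH, had 0.70 ± 0.28, IL1A, interleukin 1 alpha, 0.86 ± 0.31, and PTX3, a soluble pattern receptor stored by neutrophils, 1.96 ± 0.85 (SE). IL1R2, the decoy receptor that soaks up interleukin 1, was the lower gene, at 6.86, 2.68, 2.81, 2.30, 4.48, 3.01 and 3.68 CPM in Case_01 to Case_07 against 1.85 to 59.9 CPM with a control median of 6.95 (log2 fold change -1.50 ± 0.53, SE). All 7 severe dogs were below the control median, as they were in 2.44% of all genes. Of 17 genes induced by type I interferon, 16 had a positive log2 fold change with a median of 0.33, and 2 had an unadjusted p under 0.05. ISG15, a ubiquitin-like protein, was at 100.3, 6.54, 3.39, 20.04, 9.78, 12.0 and 8.60 CPM in Case_01 to Case_07 against 1.58 to 15.5 CPM (log2 fold change 1.73 ± 0.49, SE, adjusted p = 0.238, and 0.54 without Case_01). Case_01 held the highest value among the severe dogs in 11 of the 17 genes, and without Case_01 the median was 0.24. With any 1 dog left out the median ran from 0.24 to 0.49. RSAD2, viperin, was at 1167 CPM in Case_01 and 32.9 to 207 CPM in the other severe dogs, and Control_03 was the highest control at 621 CPM. Its log2 fold change was 1.36 with all dogs and 0.24 without Case_01. MX1 had 0.92 ± 0.45 (SE), with all 7 severe dogs above the control median.

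Of 15 genes of sialic acid and sulfate transfer, 5 were higher at an unadjusted p under 0.05 and the median was 0.02, and this list holds genes that the study singled out in these dogs, so its count is not independent evidence. CHST9, which adds sulfate to N-acetylgalactosamine, was at 2.57, 1.07, 0.58, 0.40, 2.63, 0.94 and 0.69 CPM in Case_01 to Case_07 against 0.052 to 0.753 CPM (log2 fold change 1.76 ± 0.36, SE, adjusted p = 0.0567). Case_04 was just below the control median of 0.40 CPM and 4 severe dogs were above all controls. ST6GALNAC4, a sialyltransferase, was at 64.8 to 125 CPM against 31.8 to 91.0 CPM (log2 fold change 0.74 ± 0.18, SE), SIAE, a sialic acid esterase, had 0.66 ± 0.16 and MGAT4B, which branches N-glycans, 0.44 ± 0.13 (SE). The list of scavenger receptors, with receptors of the TAM family and their ligand GAS6, held 10 tested genes. In 2 of the 10 genes the fold change was positive with an unadjusted p under 0.05, against 4.78% of all genes. The median was 0.16, or 0.10 without Case_01. It was -0.09 on the high side of the small RNA split and 0.43 on the low side. MERTK, the receptor by which macrophages take up dying cells, was 1 of the 2 genes. It was at 0.74 to 2.76 CPM against 0 to 1.59 CPM (log2 fold change 1.59 ± 0.45, SE). Of 15 genes of insulin signalling, 2 had a positive fold change with an unadjusted p under 0.05 (median 0.05), of which PINK1, the kinase that marks damaged mitochondria, had 0.50 ± 0.14 (SE).

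No gene that was lower in severe HTG passed the threshold with edgeR on all 25 dogs, while DESeq2 called 6. With 1 dog left out edgeR called 3 lower genes without Control_03, 3 without Case_03 and 1 without Case_07. The 10 lower genes with the smallest p had log2 fold changes from -1.04 to -0.22. XKRX, a member of the XK family of membrane proteins, was at 2.87, 5.79, 9.35, 3.76, 3.85, 6.29 and 7.01 CPM in Case_01 to Case_07 against 5.69 to 20.5 CPM, with a control median of 10.2 (log2 fold change -1.04 ± 0.23, SE, adjusted p = 0.081). No severe dog reached the control median. PHF14, a chromatin reader, was at 36.3 to 43.3 CPM against 42.7 to 51.2 CPM, a small shift with little overlap (log2 fold change -0.24 ± 0.05, SE, adjusted p = 0.0948). The general transcription regulator BTAF1 had -0.30 ± 0.07 and the mitochondrial ribosomal protein MRPL35 -0.66 ± 0.17 (SE). The others were ARHGEF40 at -0.62, SUN1 at -0.30, ALG3 at -0.41, HECA at -0.22, NDUFAF7 at -0.31 and TRNT1 at -0.47. They included an exchange factor for GTP-binding proteins (ARHGEF40), a linker of the nuclear envelope (SUN1), a mannosyltransferase of N-glycan synthesis (ALG3), an assembly factor of respiratory complex I (NDUFAF7) and the enzyme that finishes transfer RNAs (TRNT1).

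Of 8 T cell markers, 3 were lower at an unadjusted p under 0.05 and the median was -0.23. With 1 dog left out it ran from -0.36, without Case_03, to -0.155. The T cell median was -0.44 on the high side of the small RNA split and -0.14 on the low side. As covariates, the platelet score gave -0.08 and the red cell precursor score gave -0.10. IL7R, the receptor for interleukin 7, had -0.49 ± 0.22, CD3E -0.37 ± 0.18 and CD5 -0.35 ± 0.16 (SE). The lowest values of all 3 among the severe dogs were those of Case_06, at 30.3, 46.8 and 39.2 CPM. Of 7 markers of cytotoxic lymphocytes, 6 had a positive fold change, 2 of them with an unadjusted p under 0.05. Their median was 0.27, with 0.13 without Case_05 and 0.53 without Control_18. KLRB1 was at 1.87 to 18.4 CPM and GZMB, granzyme B, at 20.4 to 65.9 CPM in the severe group, with log2 fold changes of 1.06 ± 0.44 and 0.77 ± 0.37 (SE), and Case_05 was the highest severe dog for both. Without Case_05, KLRB1 had 0.55. The cytotoxic score was above the control median in 6 of 7 severe dogs and the T cell score in 3 of 7. None of 7 B cell markers, 6 monocyte markers and 5 markers of basophils and eosinophils had an unadjusted p under 0.05, with medians of 0.15, 0.06 and 0.19. With 1 dog left out these medians ran from 0.10 to 0.23, from 0.03 to 0.11 and from -0.03 to 0.35. On the high side of the small RNA split they were 0.30, -0.05 and 0.81, and on the low side -0.10, 0.25 and -0.26. Of 5 endothelial markers, 4 had a positive fold change, and only EGFL7 had an unadjusted p under 0.05, with 0.85 ± 0.24 (SE, adjusted p = 0.252), at 2.22 to 8.08 CPM against 1.03 to 4.81 CPM, and the median was 0.46, or 0.27 without Case_06. The endothelial score of all 7 severe dogs was above the control median, with 6 of 18 controls above the lowest severe dog.

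The moderate dogs were set beside the severe ones against the same 18 controls, so that the comparisons share their controls. The called genes were chosen for high values against these controls, so their values in moderate HTG are a description. The log2 fold changes in severe and moderate HTG were 2.21 and 2.13 for ARHGAP29, 0.63 and 0.44 for ARHGAP21, 0.67 and 0.68 for MAPK6, 0.86 and 0.34 for CISH and 0.47 and 0.33 for BANF1. Case_09 carried much of the moderate values, which without it were 1.29 for ARHGAP29, 0.28 for ARHGAP21, 0.18 for MAPK6 and 0.20 for BANF1, while CISH had 0.34. The platelet receptors had medians of 0.59 and 0.54, and the neutrophil granule genes 1.17 and 1.18. Without Case_09 the moderate median of the receptors was 0.38, and without Case_11 that of the granule genes was 0.10. The medians of heme synthesis and red cell genes were 0.84 and 0.21, with -0.05 in moderate HTG without Case_08. Those of alpha granule genes were 0.42 and 0.06, and with 1 moderate dog left out the latter ran from 0.03 to 0.13. In neither of these 2 lists did a member have an unadjusted p under 0.05 between severe and moderate HTG. The alpha granule genes with the smallest p had 1.22 and 1.17 for MMRN1 and 0.82 and 0.73 for THBS1, of which the moderate values were 0.72 and 0.49 without Case_09, and the severe median of the list was 0.26 without Case_06.

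Severe and moderate HTG were compared directly in a fit of all 31 dogs. In that comparison 0 genes passed with edgeR, with DESeq2 and with limma-voom, and 327 of 14427 genes (2.27%) had an unadjusted p under 0.05 with edgeR. CISH had a log2 difference of 0.52 (unadjusted edgeR p = 0.016), and the moderate dogs lay at 46.2 to 57.3 CPM. LSS had a log2 difference of 0.80 (unadjusted edgeR p = 0.006), ZFPM1 had 0.52 (unadjusted edgeR p = 0.023, and 0.073 without Case_11) and LCN2 had -1.82 (unadjusted edgeR p = 0.0079). The smallest p values were those of PRPSAP2, a partner of the enzyme that makes phosphoribosyl pyrophosphate, with -0.40, MMP1, a collagenase, with -3.71, the stress kinase PLK2 with 1.31, UPB1, which breaks down pyrimidines, with -0.76, and the microRNA gene MIR29B1 with 1.28, all with an adjusted edgeR p of 0.9998. MMP1 was at 0.49 to 5.30 CPM in the severe dogs and at 1.45 to 56.5 CPM in the moderate ones. In moderate HTG against controls 0 genes passed with edgeR (603 at an unadjusted p under 0.05), and 2 passed with DESeq2.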

How the data were processed

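The authors deposited 1 table of raw counts per gene and dog. Per the study's methods, ribosomal RNA was removed (the labels name a total RNA kit but give the molecule as polyA RNA), reads were trimmed and aligned with HISAT2, and pairs were counted where both mates mapped. The counting program, the annotation and the strand setting are not given in the sources used here, so a gene and an overlapping partner on the other strand may share counts. The study corrected for a pilot batch, which is not used here because its dogs are not named in the sources used here.

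Severe and control dogs were compared with the quasi-likelihood test of edgeR 4.0.16 in R 4.3.3 (TMM over 31 dogs, filterByExpr, prior count 2), with Benjamini-Hochberg adjustment over 14427 genes and a threshold of 0.05. Of 32704 table rows, 7120 were 0 in every dog. The severe against moderate contrast came from a fit of 3 groups. DESeq2 1.42.0 and limma 3.58.1 were alternatives, and the script was tested on simulated data. Each dog is a separate animal, and depth limits genes of few counts. Two-sided tests were used throughout.

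Genes were named by rule: called genes with a symbol, the 10 smallest p values in a direction with fewer than 10 calls, the 5 smallest in severe against moderate HTG, and members of gene lists by p, with defining members (ITGA2B, GP1BA, SELP, PPBP, ALAS2, AHSP). The gene groups and markers were chosen with earlier results of these data known, and some hold genes the study picked from these dogs. ALOX12, ANK1, CD177, CAMP and PTX3, outside the 4 smallest p values of their lists, were named after their values were seen, and not every member with a small p is named. Some genes, 1 of them called, and 1 gene group are not reported here.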

Additional observations from a re-analysis of the deposited data

Results flagged for a closer look

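In groups of 4 to 10 dogs, the gap between the highest or lowest dog and its neighbour was set against the range of the group, both on the log2 CPM scale, with Dixon's 95% critical value. Of 119 groups of values tested, 3 were past it, and chance alone passes about 1 in 20. BANF1 in severe HTG had its lowest value in Case_07, at 15.95 CPM, with a gap of 0.587 of the range, while the other 6 severe dogs lay between 22.1 and 27.8 CPM. LCN2 in severe HTG had its highest value in Case_03, at 10.09 CPM, with a gap of 0.709 of the range, and the other severe dogs were at most at 2.52 CPM. MAPK6 in moderate HTG had its highest value in Case_09, at 145.1 CPM, with a gap of 0.861 of the range, above the 90.5 CPM of the highest severe dog. Without Case_09 the log2 fold change of MAPK6 in moderate HTG against controls was 0.18 instead of 0.68. What set these dogs apart was not tested.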

How the results depend on the processing

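The number of genes past the threshold in severe HTG against controls was 10 and moved with the processing, and the cause was not tested. It was 43 with DESeq2 and 42 with DESeq2 and the small RNA split, 16 with limma-voom, 11 with RLE normalization and 5 with upper quartile normalization. It was 5 with no filter on low counts, 1 with at least 10 counts in every dog and 6 without the 20 highest genes. It was 7 in the fit of 3 groups, 2 with sex, 2 with age, 6 with body condition score, 5 with the red cell precursor score and 0 with the platelet score as a covariate (edgeR, 741 genes at an unadjusted p under 0.05). It was 11 with the small RNA split as a covariate, 0 on its high side and 3 on its low side, and 5 without Case_01 and Control_03. Leaving out 1 dog gave 1 to 63 calls. The red cell score and DESeq2 with the split were chosen after seeing the data. Moderate HTG against controls gave 2 calls with DESeq2 and 0 to 1 with 1 moderate dog left out, an alternative also chosen after seeing the data. Severe against moderate HTG gave 0 in every fit run.

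With a replicate block by dog number 0 genes were called (edgeR, 481 at an unadjusted p under 0.05). Dogs of 1 number shared nothing but the number: the correlation of their deviations ran from -0.441 to 0.216 over 7 pairs, and 2 pairs were over 0.1.

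Signs turned for RSAD2 (-0.027), UCP2 (-0.32) and SREBF1 (-0.046) on the high side, for GP9 (-0.053), TFPI (-0.15) and PPBP (-0.23) with the platelet score, and for AHSP (-0.0077) with the red cell score. GP9 and PPBP are part of the platelet score and AHSP of the red cell score, so each was adjusted by a score that contains it. Of other members of the platelet score, SELP (0.009), GP1BA (0.07) and ALOX12 (0.48) kept their sign with it as a covariate. TFPI, which turned, is not part of that score. Why these signs turned was not tested. Depth limits genes of few counts, such as SLPI and CHST9, with control means of 0.40 and 0.37 CPM.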

Other observations

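Genes outside the groups described also had wide differences, and the genes named here were chosen after their values were seen. FKBP5, a chaperone partner that glucocorticoids induce, was at 68.8, 56.5, 80.7, 67.9, 44.0, 50.55 and 45.85 CPM in Case_01 to Case_07, against 55.0 to 429 CPM in the controls with a median of 97.1. All 7 severe dogs were below the control median (log2 fold change -1.27 ± 0.37, SE, adjusted edgeR p = 0.255, adjusted DESeq2 p = 0.0474). The moderate dogs were at 58.4 to 278 CPM. HSPH1, a heat shock protein, was at 21.5 to 35.8 CPM in the severe dogs and at 24.7 to 58.2 CPM in the controls, with all 7 below the control median (log2 fold change -0.49 ± 0.14, SE, adjusted edgeR p = 0.269).

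Without Control_03, the genes that passed the threshold also held TGM2, a transglutaminase, with a log2 fold change of 2.93 ± 0.52 (SE, adjusted edgeR p = 0.0167). With all dogs TGM2 had 2.37 (adjusted edgeR p = 0.185). FAM210B, a mitochondrial protein that red cell precursors use for iron import, had 2.09 ± 0.42 (SE, adjusted edgeR p = 0.0324) without that dog. With all dogs it had 1.55 (adjusted edgeR p = 0.404). UBAC1, TXN2 and UBE2R2 had 1.33, 1.25 and 1.33 without Control_03, against 0.84, 0.73 and 0.85 with all dogs. Their adjusted edgeR p values with all dogs were 0.615, 0.661 and 0.615, so none of the genes named here passed there. The 3 lower genes were XKRX, BTAF1 and PHF14, at -1.08, -0.31 and -0.24.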
